A study of Homo sapiens with 24 samples.

Results

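Adding panobinostat to CX-5461 was examined in MM1.S, an established human multiple myeloma line labelled p53-WT. The 3 libraries from MM1.S cells given both drugs were compared with the 3 libraries from MM1.S cells given CX-5461 alone, and every gene that passed a filter on low counts was a member of the comparison: 12030 of the 28395 identifiers listed. These 6 libraries are part of a set of 24, made from MM1.S and from JJN3, a myeloma line labelled p53-null, each under 4 treatments with 3 replicates. The CX-5461 group received 500 nM of the drug for 24 h. The combination group received the same 500 nM together with 50 nM panobinostat, also for 24 h, so the compared groups share CX-5461 and differ in panobinostat. The other MM1.S groups received vehicle or 50 nM panobinostat alone, and the 4 JJN3 groups matched the 4 MM1.S groups in dose and time. Both lines carry the genotype label wild type, were grown in RPMI-1640 with fetal bovine serum, and gave polyA RNA that was read by 3′ RNA sequencing. Each cell line is a single model of its p53 status, and the lines differ in more than p53. The labels do not say whether replicates came from separate cultures, so the p-values speak only of how these libraries varied, a spread that could be technical.

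CX-5461 blocks transcription of the ribosomal RNA genes by RNA polymerase I. When ribosome assembly stalls, free ribosomal proteins bind MDM2, the ubiquitin ligase that marks p53 for destruction, and p53 accumulates and switches on its target genes in cells that have it. Panobinostat inhibits histone deacetylases (HDACs), enzymes that remove acetyl groups from histones and other proteins. HDAC inhibitors are known to open silent genes and to lower lineage genes that depend on large enhancers, and panobinostat is used in multiple myeloma, a cancer of plasma cells. The study set out to describe the molecular response to both drugs together. Ribosomal RNA carries no polyA tail and was not measured.

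The stretches upstream of 5 genes that carry the results below are shown first, because both GC boxes and metal response elements have been studied in the control of these genes. CDKN1A encodes p21, an inhibitor of cyclin-dependent kinases and the best known p53 target; its GC boxes, which bind Sp1 family factors, are textbook elements of its response to HDAC inhibitors. HEXIM1 encodes the inhibitor of the elongation kinase P-TEFb. MT1X, MT2A and MT1H encode metallothioneins, small proteins that bind zinc and copper and are switched on through metal response elements. Each stretch holds the 150 bases before a RefSeq transcription start on the plus strand of GRCh38.p14, written 5′ to 3′. For CDKN1A and HEXIM1 the capitals mark the GC box GGGCGG or its reverse complement, and for the metallothioneins the metal response element core, TGCACNC or TGCGCNC or their reverse complements, searched on both strands.
CDKN1A (chr6:36678564-36678713): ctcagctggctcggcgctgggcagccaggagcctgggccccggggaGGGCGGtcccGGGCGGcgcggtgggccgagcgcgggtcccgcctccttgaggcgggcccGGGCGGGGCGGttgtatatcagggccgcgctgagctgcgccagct
HEXIM1 (chr17:45148325-45148474): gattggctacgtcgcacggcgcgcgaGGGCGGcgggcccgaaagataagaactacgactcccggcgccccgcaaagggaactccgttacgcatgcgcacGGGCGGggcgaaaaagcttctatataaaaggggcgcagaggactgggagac
MT1X (chr16:56682320-56682469): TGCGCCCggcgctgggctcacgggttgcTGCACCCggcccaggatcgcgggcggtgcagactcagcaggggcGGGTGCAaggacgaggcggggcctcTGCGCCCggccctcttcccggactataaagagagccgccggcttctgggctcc
MT2A (chr16:56608434-56608583): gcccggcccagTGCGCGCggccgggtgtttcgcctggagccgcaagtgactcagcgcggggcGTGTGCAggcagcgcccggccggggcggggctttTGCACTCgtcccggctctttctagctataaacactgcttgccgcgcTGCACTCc
MT1H (chr16:56669664-56669813): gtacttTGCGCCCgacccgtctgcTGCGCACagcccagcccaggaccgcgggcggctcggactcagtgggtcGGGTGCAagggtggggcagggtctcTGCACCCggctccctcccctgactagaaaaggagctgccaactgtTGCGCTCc
The CDKN1A stretch holds 4 GC boxes, of which 1 overlaps another, and the HEXIM1 stretch holds 2. The metal response core was found 4 times in the MT1X and MT2A stretches and 5 times in the MT1H stretch. Of 35116 RefSeq windows of this length, 12920 (36.8%) hold the GC box and 6019 (17.1%) the metal response core. A match is a description of the letters, and no binding was measured here. CDKN1A fell and HEXIM1 rose when panobinostat was added to CX-5461, as described below. Over all 9705 tested genes with a window, 57.7% of the windows of genes that rose, 54.6% of those of genes that fell and 55.2% of those of genes not called hold a GC box. The metal response core is in 21.2%, 23.2% and 23.0% of them, in the same order.

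Library totals over the 24 samples ran from 4751893 to 7305069 counts. The CX-5461 libraries held 6575953, 6997714 and 7305069 counts and the combination libraries 5063328, 5647591 and 5182287, so the compared groups did not overlap in depth, and the part of depth in the results was not tested. A floor of 3 counts is 0.411 to 0.456 CPM of library total in the former and 0.531 to 0.592 in the latter, and a gene at 0 may lie anywhere below it. MALAT1, a nuclear noncoding RNA, took 0.684%, 0.725% and 0.695% of counts with CX-5461 and 7.34%, 6.73% and 8.65% with the combination, and it rose by 3.34 ± 0.12 on the log2 scale. With the 10 most abundant genes left out, 8363 genes were called, against 8393 with them. Replicates of each group differed from each other by more than sampling noise, with a chi-square of 4.09 to 14.3 per degree of freedom, so each library was counted as its own sample. The first principal component of the 12 MM1.S libraries held 82.3% of the variance and separated the libraries with panobinostat from those without. Plasma cell genes were present, with SDC1, XBP1 and JCHAIN counted at a mean of 1053, 1841 and 1984 CPM with CX-5461, while the 8 T cell markers summed to 3.08 to 6.87 CPM with CX-5461 and 1.70 to 3.32 with the combination and the 9 myeloid markers to 13.4 to 14.5 and 3.32 to 4.42. In both groups 2 of the T cell markers, among them CD3D, and 3 of the myeloid markers, among them MPO, were at 0, and the part of these markers in the results was not tested. CPM, counts per 1000000 of the library total, are given here after scaling by edgeR's TMM factors. In bulk samples, fewer cells of a type and less RNA per cell cannot be told apart.

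Adding panobinostat moved most of the transcriptome. Of 12030 genes, 8393 (69.8%) passed an adjusted p of 0.05 in edgeR's quasi-likelihood test with Benjamini-Hochberg adjustment over all genes tested, and every call of a rise or fall below uses that threshold. The called genes split into 4320 that rose (35.9%) and 4073 that fell (33.9%), and the median log2 fold change of all genes was 0.04. In 4508 genes (37.5%) all combination libraries lay above all CX-5461 libraries and in 4242 (35.3%) all lay below. Among the genes that rose, 2421 did so by at least 2-fold and 646 by at least 8-fold. Of the genes that fell, 1993 passed 2-fold and 234 passed 8-fold. Of the genes that rose, 105 had no count in any CX-5461 library, while 6 of those that fell had none in any combination library. Of the 3008 genes with the lowest vehicle level, up to 4.44 CPM, 59.5% rose and 11.1% fell. Of the 3008 with the highest level, from 56.5 CPM, 19.0% rose and 56.8% fell, and the median was -0.36. The former hold genes that passed the filter through the groups in which they were high, so their share of rises is fixed in part by the filter. Upper-quartile scaling moved the overall median by 0.14 and gave rises as 58.9% of calls, and scaling by library size alone gave 56.4%, against 51.5%. In the text that follows, values with ± are means with the SD over 3 libraries for CPM and estimates with the standard error for log2 fold changes, and a background of 35.9% higher and 33.9% lower applies to each count of list members.

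**Figure D1:**
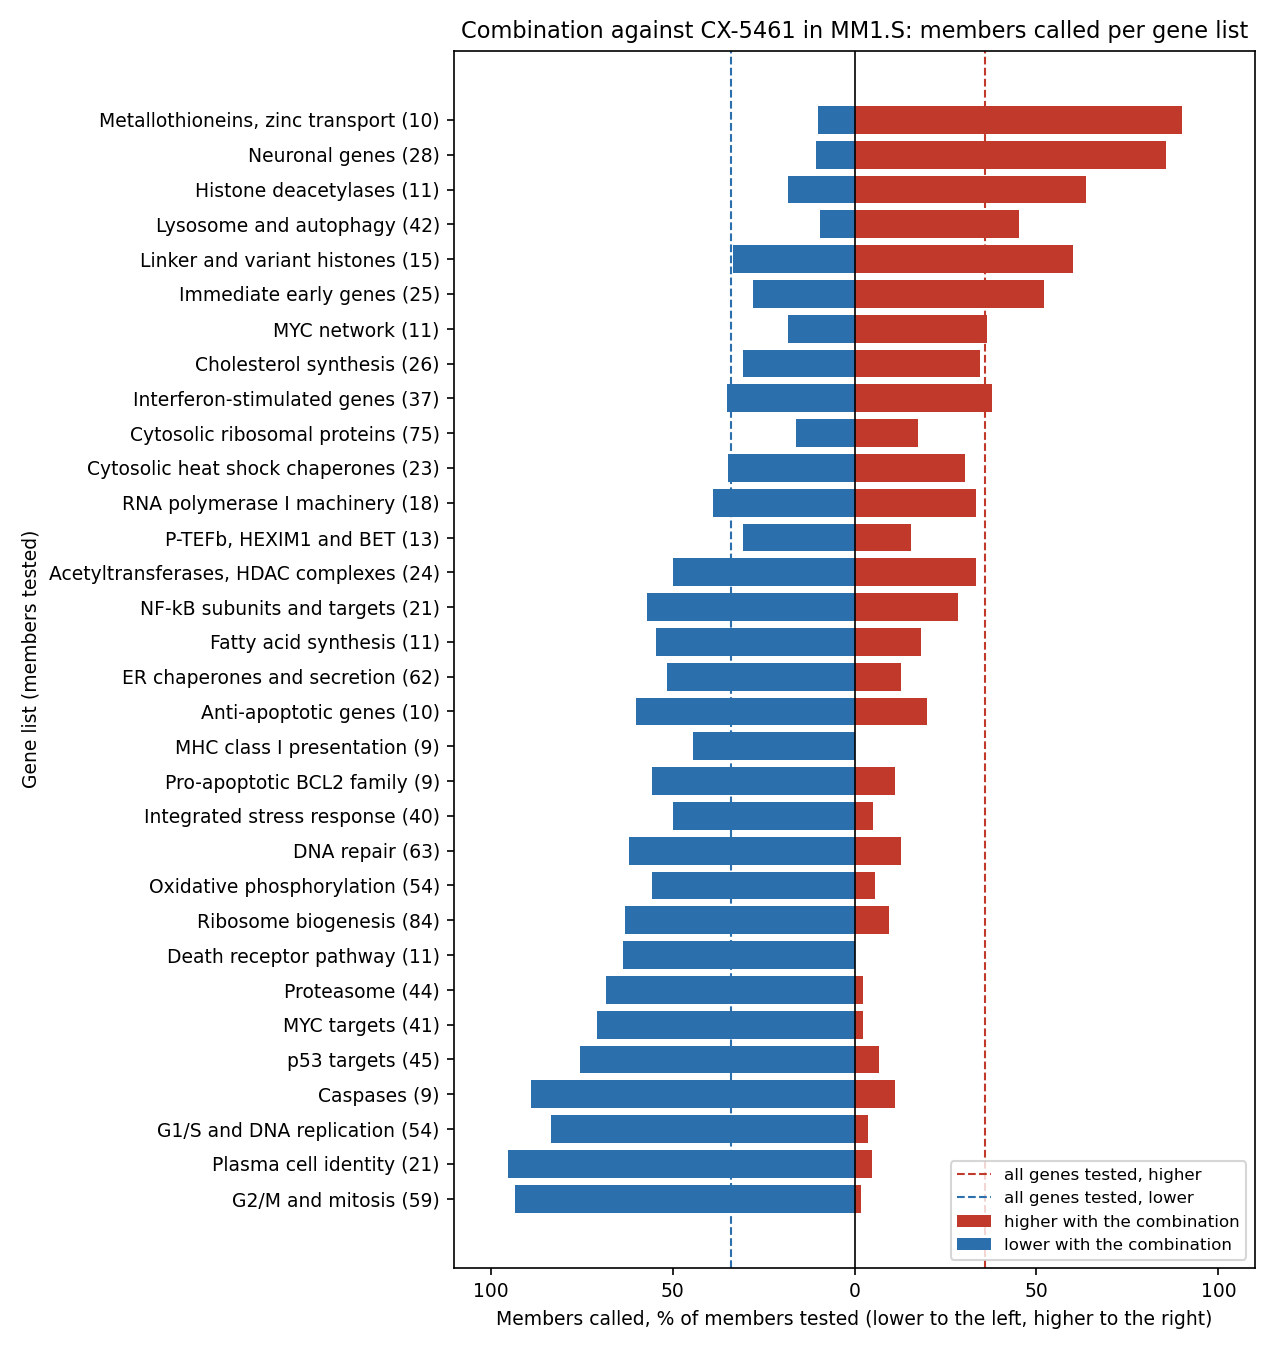
Share of the tested members of each gene list that rose (right) or fell (left) when panobinostat was added to CX-5461 in MM1.S, in percent, for lists with at least 9 tested members. Dashed lines mark the same shares over all 12030 genes, 35.9% higher and 33.9% lower. The plasma cell, G2/M and G1/S lists lie far to the left, and the metallothionein and neuronal lists far to the right.

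The targets of p53 fell as a group. Of 50 listed targets, 45 passed the filter, and 34 of these fell, 3 rose and 8 were not called, with a median log2 fold change of -1.20. The summed level of the list was 2561.2 to 2761.9 CPM with vehicle, 6826.4 to 7209.2 with CX-5461, 2182.7 to 2359.5 with panobinostat and 2593.8 to 2764.7 with the combination. The combination libraries overlapped the vehicle libraries in this sum, and none reached the CX-5461 libraries.

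CDKN1A (NCBI Gene 1026), the p21 gene introduced above, was counted at 678, 766 and 754 CPM in the CX-5461 libraries and at 132, 130.2 and 151 CPM in the combination libraries. All combination values lie below all CX-5461 values and above the vehicle mean of 45.9 ± 6.58 CPM. Its log2 fold change was -2.41 ± 0.12 (edgeR adjusted p = 1.11e-14). MDM2 (NCBI Gene 4193), the ligase that p53 itself induces, was counted at 1376, 1506 and 1455 CPM with CX-5461 and at 469, 395 and 553 CPM with the combination. The groups were again apart, and the fall was -1.61 ± 0.14 (edgeR adjusted p = 2.3e-09). PHLDA3, a p53-induced inhibitor of the kinase AKT, fell furthest of the list, from 310.3, 329.5 and 309 CPM to 8.5, 7.63 and 9.39 CPM, by -5.22 ± 0.18 (edgeR adjusted p = 7.32e-17). In its case the combination libraries lay below the vehicle mean of 19.5 ± 7.46 CPM.

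GDF15, a secreted stress factor, was close to absent with vehicle at 0.395 ± 0.349 CPM and was counted at 55.9, 50.6 and 44.5 CPM with CX-5461. With the combination it was counted at 4.34, 2.49 and 6.26 CPM, a fall of -3.54 ± 0.24. DDB2, which recognises UV damage in DNA, fell from 194 ± 5.47 to 28.6 ± 4.38 CPM, by -2.77 ± 0.11. Its combination level is near the vehicle level of 32.9 ± 2.59 CPM. ZMAT3, an RNA-binding p53 target, went the other way, from 25.6, 25 and 29 to 71.4, 80 and 72.9 CPM, a rise of 1.49 ± 0.11 (edgeR adjusted p = 1.61e-11). The other risers were APAF1, the scaffold of the apoptosome, at 2.96 ± 0.41, and SERTAD1, a regulator of cyclin D kinases, at 0.78 ± 0.19. TNFRSF10B, the death receptor DR5, was not called: it was counted at 89.8, 102 and 94 CPM with CX-5461 and 106, 86.4 and 114 CPM with the combination, a difference of 0.10 ± 0.12 (edgeR adjusted p = 0.459). Its level with vehicle was 20 ± 3.51 CPM.

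**Figure D2:**
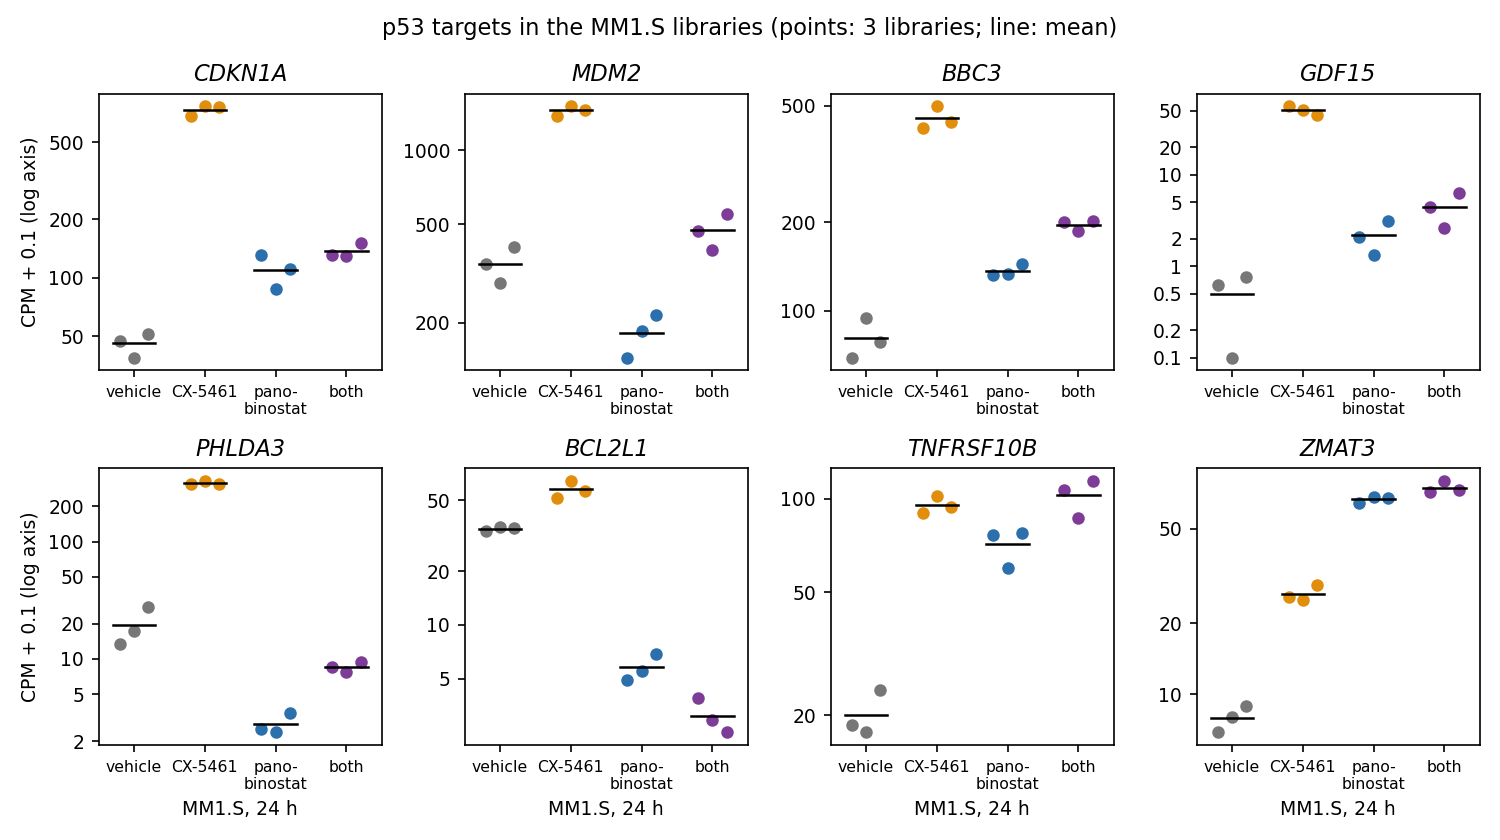
Levels of 8 p53 targets in the 12 MM1.S libraries, as CPM plus an offset of 0.1 on a log axis, with points for libraries and lines for group means of 3. CDKN1A, MDM2, BBC3, GDF15, PHLDA3 and BCL2L1 are lower with the combination than with CX-5461 in every library, ZMAT3 is higher, and TNFRSF10B overlaps between these 2 groups.

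The genes of the mitochondrial death pathway fell on both of its sides. Of 9 tested pro-apoptotic members of the BCL2 family, 5 fell (BID, BAX, PMAIP1, BBC3 and BAK1) and 1 rose, or 2 without combination replicate 2. BBC3, which encodes the p53-induced BH3-only protein PUMA, was counted at 419.6, 498 and 439.6 CPM with CX-5461 and at 201, 187 and 202 CPM with the combination. The groups did not overlap, the log2 fold change was -1.20 ± 0.11, and the combination level was still above the vehicle level of 80.5 ± 12.7 CPM. PMAIP1, which encodes NOXA, fell from 34.6 ± 3.51 to 14.6 ± 4.43 CPM, by -1.25 ± 0.23. BID, which links death receptors to mitochondria, fell from 58.8 ± 5.14 to 11.8 ± 1.79 CPM, by -2.32 ± 0.14. The riser was BCL2L11, which encodes BIM, at 63.4, 71.4 and 61.5 CPM with CX-5461 and 91.8, 142 and 114 CPM with the combination. All combination libraries lay above, with a log2 fold change of 0.83 ± 0.16 (edgeR adjusted p = 0.000183).

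On the survival side, 6 of 10 tested anti-apoptotic genes fell and 2 rose. BCL2L1, which encodes BCL-XL, was counted at 51.7, 64.4 and 56.3 CPM with CX-5461 and at 3.78, 2.82 and 2.39 CPM with the combination. Every combination library was far below every CX-5461 library, and the log2 fold change was -4.26 ± 0.18 (edgeR adjusted p = 2.08e-16). BCL2 itself fell from 76.3 ± 10.3 to 24.1 ± 4.5 CPM, by -1.67 ± 0.16. CFLAR, which encodes the caspase-8 inhibitor FLIP, fell by -2.20 ± 0.14, and BIRC5, which encodes survivin and peaks in mitosis, by -2.45 ± 0.15. MCL1, on which myeloma cells are known to depend, rose from 616, 673 and 579 to 817, 925 and 856 CPM, by 0.48 ± 0.09 (edgeR adjusted p = 5.47e-05). BIRC2, which encodes cIAP1, rose by 0.82 ± 0.10.

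Receptors and caspases followed the same direction. Of 11 tested genes of the death receptor pathway, 7 fell and 4 were not called, among them TNFRSF10B, above, and the adaptor kinase gene RIPK1 (0.25 ± 0.12, edgeR adjusted p = 0.073). FAS, the CD95 receptor and a p53 target, was counted at 11.6, 14.9 and 11.8 CPM with CX-5461 and 0.944, 0.664 and 0.368 CPM with the combination, a fall of -4.24 ± 0.34. TNFRSF1A, the main TNF receptor, fell from 118 ± 12.1 to 20.8 ± 1.81 CPM. Of 9 tested caspases, 8 fell, among them CASP1 by -1.46 ± 0.16, CASP10 by -1.27 ± 0.14 and CASP4 by -1.25 ± 0.22. CASP9, the initiator caspase of the apoptosome, rose from 4.37, 4.55 and 4.9 to 16.2, 17.9 and 15.6 CPM, by 1.84 ± 0.20 (edgeR adjusted p = 1.56e-08).

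Plasma cell genes fell almost without exception. Of 23 listed genes 21 passed the filter, 20 fell and 1 rose, with a median of -2.26. Their summed level was 10876 to 11846 CPM with vehicle, 8597.9 to 9227.0 with CX-5461 and 1644.3 to 1848.7 with the combination. TNFRSF17 (NCBI Gene 608), which encodes BCMA, the receptor for plasma cell survival factors and a target of myeloma therapies, was counted at 345, 321 and 266 CPM with CX-5461 and at 2.64, 3.98 and 1.84 CPM with the combination. The groups were far apart, with a log2 fold change of -6.75 ± 0.18 (edgeR adjusted p = 7.39e-20). POU2AF1, the B cell coactivator OCA-B, fell from 348, 345 and 385 to 9.44, 12.1 and 12.9 CPM, by -4.96 ± 0.13. No combination library of either gene came near the CX-5461 range.

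XBP1, the transcription factor of the secretory programme, was counted at 1797, 1811 and 1915 CPM with CX-5461 and 131, 144 and 133 CPM with the combination, a fall of -3.76 ± 0.11. SDC1, the surface proteoglycan CD138 by which plasma cells are identified, fell from 1035, 1076 and 1048 to 74.8, 83.3 and 74.6 CPM, by -3.76 ± 0.12. PRDM1, which encodes the plasma cell repressor BLIMP1, fell from 146 ± 8.94 to 30.4 ± 5.69 CPM, by -2.26 ± 0.25. IRF4, a transcription factor that myeloma cells need, moved little: it was counted at 118, 125 and 129 CPM with CX-5461 and 92, 111 and 94.6 CPM with the combination, with a log2 fold change of -0.32 ± 0.11 (edgeR adjusted p = 0.011). The groups did not overlap, but the call was lost with scaling by library size alone (-0.22, adjusted p = 0.0833) and with upper-quartile scaling (-0.18, adjusted p = 0.142). CD38, the target of daratumumab, was low throughout and fell by -0.74 ± 0.28 (edgeR adjusted p = 0.0215). That call was lost without CX-5461 replicate 1 or 3 or combination replicate 3, with adjusted p from 0.0534 to 0.0787. DESeq2 (adjusted p = 0.068) and upper-quartile scaling (adjusted p = 0.0598) lost it too. The riser, EAF2, a partner of elongation factor ELL, overlapped between the groups at 15.3, 13.2 and 10.4 and 17.6, 26 and 13.1 CPM. Its call was lost without CX-5461 replicate 2 or 3 or combination replicate 1 or 2, with adjusted p from 0.0598 to 0.405. DESeq2 lost it too (adjusted p = 0.0513).

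Chemokines and their receptors, which guide plasma cells to bone marrow, fell as well: 7 of the 8 tested of 19 listed, with a median of -3.96. CCR2 was counted at 127, 127 and 104 CPM with CX-5461 and 0.755, 1.99 and 1.47 CPM with the combination, a fall of -6.36 ± 0.21, and CCR1 fell from 185 ± 16.1 to 6.44 ± 1.33 CPM, by -4.83 ± 0.16. CXCR3 fell by -5.66 ± 0.26. CXCR4, the receptor of the marrow chemokine CXCL12, fell from 126, 116 and 109.8 to 28.7, 26.2 and 28 CPM, by -2.09 ± 0.11. CCL3, an osteoclast-activating chemokine, was counted at 241, 19.8 and 161 CPM with CX-5461 and was at 0 in all 3 combination libraries, at least 768-fold lower against a floor of 3 counts over the group. The CX-5461 libraries themselves spread widely, near-identical copies of this gene may share its reads, and with only the 6 compared libraries in the fit it was not called (adjusted p = 0.0956). Further falls chosen by size were FCMR, the IgM Fc receptor, at -6.01 ± 0.18, SYCP3, a meiotic protein, at -5.24 ± 0.22, CRYBB1, a crystallin, at -5.07 ± 0.27, AGMAT, an agmatinase-like enzyme, at -4.92 ± 0.21, and HEMGN, a haematopoietic nuclear protein, at -4.84 ± 0.22. Of 6 tested early B cell genes, CD79B (from 35.4 ± 4.07 to 9.54 ± 2.59 CPM) and BACH2 fell, while the transcription factors PAX5, EBF1 and BCL6 rose from low levels. BCL6, the germinal centre repressor, was counted at 2.5, 0.853 and 1.26 CPM with CX-5461 and 20.4, 16.8 and 21 CPM with the combination, a rise of 3.66 ± 0.28.

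**Figure D3:**
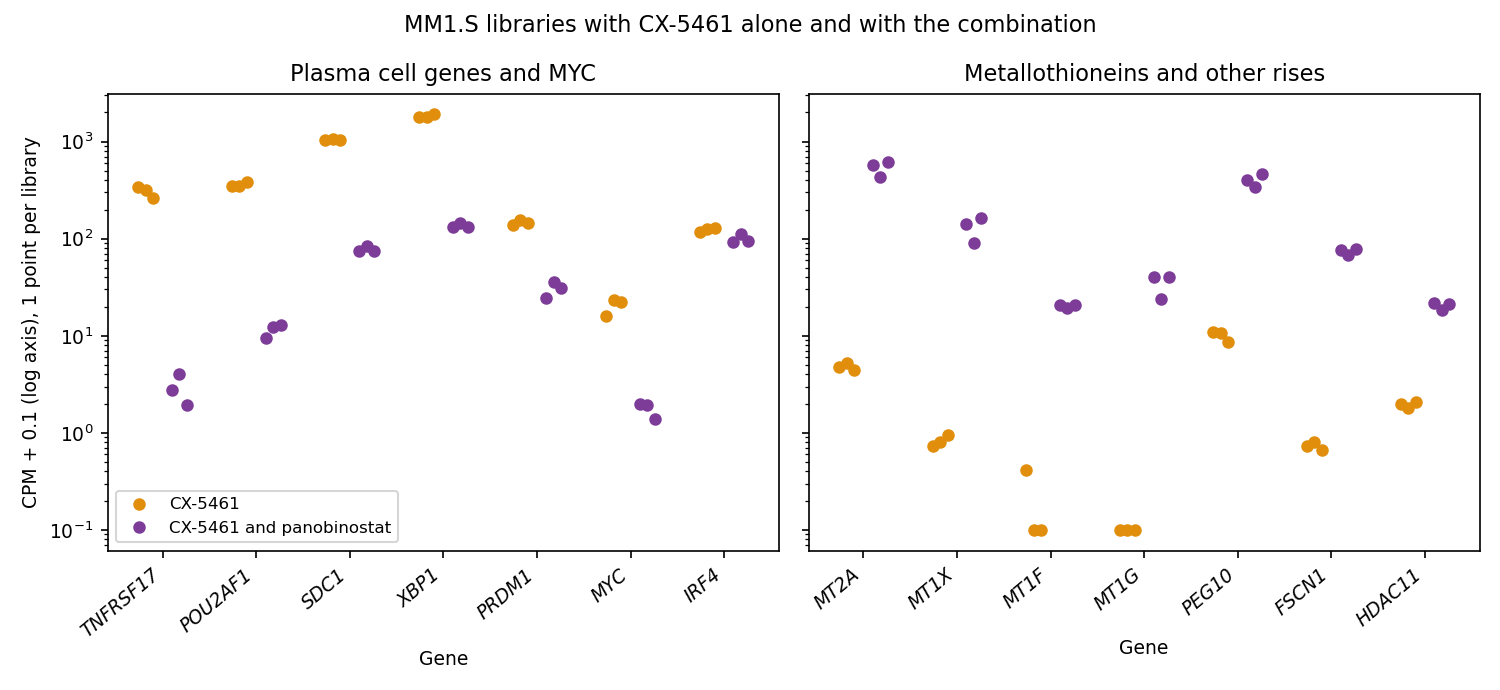
Levels in the 3 CX-5461 and the 3 combination libraries of MM1.S, as CPM plus an offset of 0.1 on a log axis, for plasma cell genes and MYC (left) and for genes that rose (right). TNFRSF17 and POU2AF1 fall furthest on the left, IRF4 moves least, and on the right MT1G sits at 0 counts in all CX-5461 libraries.

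Genes of DNA replication and mitosis fell together. Of 54 tested genes of the G1/S transition and replication, 45 fell and 2 rose, with a median of -1.36, and of 59 tested genes of G2/M and mitosis, 55 fell and 1 rose, with a median of -1.61. E2F2, an activator of the S phase programme, was counted at 311, 318 and 378 CPM with CX-5461 and 12.5, 15.1 and 20.8 CPM with the combination, a fall of -4.38 ± 0.15 (edgeR adjusted p = 4.16e-18). FOXM1, the transcription factor of mitotic genes, fell from 135, 137 and 156 to 8.69, 9.62 and 10.1 CPM, by -3.91 ± 0.13 (edgeR adjusted p = 2.83e-18). For both genes the groups were more than 10-fold apart. The number of G1/S risers was 1 without any 1 of the CX-5461 replicates and the calls of all of them were lost without combination replicate 1 or 3.

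FEN1, the flap nuclease of lagging-strand synthesis, fell by -2.52 ± 0.11, RRM1, the large subunit of ribonucleotide reductase, by -2.47 ± 0.10, and CCNB1, which encodes the mitotic cyclin B1, by -2.35 ± 0.18. E2F1 fell from 136 ± 15.1 to 35.6 ± 11.3 CPM, by -1.94 ± 0.21. NDC80 and CENPM, both of the kinetochore, fell by -2.27 ± 0.11 and -2.88 ± 0.14. The exceptions were CENPE, RFC1 and CCNE2. CENPE, a kinetochore motor, rose by 0.40 ± 0.11 and RFC1, a subunit of the clamp loader, by 0.26 ± 0.10. CCNE2 was low at 3.28, 2.27 and 1.96 CPM with CX-5461 and 6.04, 2.82 and 5.89 CPM with the combination, so the groups overlapped. Its call was lost without CX-5461 replicate 3 or combination replicate 1 or 3, with adjusted p from 0.071 to 0.0825. DESeq2 lost it too (adjusted p = 0.0507). Of 6 tested inhibitors of cyclin-dependent kinases, 4 fell (CDKN1A, CDKN2A, CDKN1B and CDKN3) and 2 rose (CDKN2D and CDKN2B). CDKN2D, which encodes p19, was counted at 68.2, 65.8 and 62.5 CPM with CX-5461 and 213, 189.8 and 205 CPM with the combination, a rise of 1.63 ± 0.10, while CDKN1B, which encodes p27, fell by -2.05 ± 0.13.

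Among 63 tested genes of DNA damage signalling and repair, 39 fell and 8 rose, with a median of -0.60. TIMELESS, which protects replication forks, fell from 219 ± 27.4 to 38.9 ± 6.58 CPM, and FANCI, of the Fanconi anaemia pathway, from 322 ± 16.2 to 75.3 ± 11.1 CPM. TP53BP1, which marks double-strand breaks for end joining, rose from 34.8, 39.7 and 34 to 95.7, 86.8 and 107 CPM, by 1.41 ± 0.12. CX-5461 has also been reported to act on topoisomerase II. TOP2A, the replication-linked form, was counted at 997, 818 and 1182 CPM with CX-5461 and 377, 319 and 384 CPM with the combination, a fall of -1.47 ± 0.12 (edgeR adjusted p = 3.2e-11). TOP2B, the other form, was counted at 150.2, 157 and 161 CPM with CX-5461 and 121, 139 and 118 CPM with the combination, a log2 fold change of -0.30 ± 0.10 whose call was lost with scaling by library size alone (-0.21, adjusted p = 0.0739) and with upper-quartile scaling (-0.16, adjusted p = 0.141). TOP1MT, the mitochondrial enzyme, fell by -0.80 ± 0.12. TOP1 rose by 0.37 ± 0.11 (edgeR adjusted p = 0.00306), but without combination replicate 1 the value was 0.26 with an adjusted p of 0.054.

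MYC fell further from an already lowered level. It was counted at 42.5 ± 9.73 CPM with vehicle, at 15.8, 23.5 and 22.1 CPM with CX-5461 and at 1.89, 1.82 and 1.29 CPM with the combination. Every combination library was below every CX-5461 library, with a log2 fold change of -3.60 ± 0.28 (edgeR adjusted p = 2.9e-11). In the MYC network of 11 tested genes, 4 rose and 2 fell: MAX, the shared partner, rose by 0.62 ± 0.10, and the antagonists MXD1 and MXI1 rose by 1.96 ± 0.13 and 0.68 ± 0.14. MXD1 went from 16.5, 20.6 and 15.6 to 63.3, 69.4 and 72.5 CPM. Of 41 tested MYC targets, 29 fell and 1 rose, with a median of -0.97. RAN, the nuclear transport GTPase, fell from 1064 ± 54.9 to 211 ± 6.65 CPM, by -2.33 ± 0.10, and CCND2, which encodes cyclin D2, by -2.68 ± 0.11. The riser was ODC1, the first enzyme of polyamine synthesis, at 382, 406 and 399 CPM with CX-5461 and 872, 643 and 832 CPM with the combination.

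In the RNA polymerase I machinery, the target system of CX-5461, 7 of 18 tested genes fell (38.9%) and 6 rose (33.3%). The median was -0.04, and both shares are near those of all genes, 33.9% and 35.9%. UBTF, the factor that keeps ribosomal DNA open, was counted at 138, 157 and 168 CPM with CX-5461 and 31.3, 38.5 and 46.2 CPM with the combination, a fall of -1.99 ± 0.13 (edgeR adjusted p = 1.53e-12). POLR1A, the largest subunit of the polymerase, fell from 8.43, 8.39 and 7.84 to 5.85, 4.31 and 3.87 CPM, by -0.81 ± 0.22. POLR1G, another subunit, fell by -1.48 ± 0.26 and the termination factor gene TTF1 by -0.60 ± 0.11. POLR1D, a subunit shared with RNA polymerase III, rose from 53.7, 60 and 54.5 to 110.5, 104 and 90.9 CPM, by 0.86 ± 0.10.

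Downstream of it, 53 of 84 tested ribosome biogenesis genes fell and 8 rose, with a median of -0.53. The number that rose was 5 without any 1 of the combination replicates and 5 with no filter on low counts. MRTO4, which assembles the ribosomal stalk, fell from 65.9 ± 9.32 to 14.6 ± 2.15 CPM, by -2.17 ± 0.15, and EMG1 and WDR43, both of the small subunit processome, fell by -1.33 ± 0.11 and -1.19 ± 0.11. NCL, which encodes nucleolin, fell from 661, 737 and 804 to 333, 299 and 323 CPM, by -1.21 ± 0.11. NPM1, which encodes nucleophosmin, was not called at 649.5, 599 and 649 CPM with CX-5461 and 731, 613 and 627 CPM with the combination (0.05 ± 0.10, edgeR adjusted p = 0.625). DDX10, a nucleolar helicase, rose by 0.85 ± 0.14. Of 75 tested cytosolic ribosomal proteins, 13 rose and 12 fell, with a median of 0.02. That split depends on the scaling: it was 24 and 3 with library size alone and 31 and 2 with upper-quartile scaling, and the number that fell was 7 without combination replicate 3. RPS25 and RPL24 rose by 0.75 ± 0.10 and 0.56 ± 0.09, and RPL10 fell by -0.69 ± 0.10.

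The highest median of any gene list was that of metallothioneins and zinc export. Of 13 listed genes of metallothioneins and zinc export, 10 passed the filter, 9 rose and 1 fell, with a median log2 fold change of 7.44, or 7.12 with genes absent from the CX-5461 group set at their bound. Members with few counts without panobinostat passed the filter through the groups in which they were high, so the count and the median only describe the list. MT2A (NCBI Gene 4502), whose upstream stretch is shown above, was counted at 4.68, 5.12 and 4.34 CPM with CX-5461 and 573, 434 and 616 CPM with the combination, a rise of 6.84 ± 0.35 (edgeR adjusted p = 1.98e-08). MT1X was counted at 0.624, 0.711 and 0.841 CPM with CX-5461 and 143, 90.9 and 163 CPM with the combination, a rise of 7.46 ± 0.52 (edgeR adjusted p = 6.15e-07). In both cases even the lowest combination library was far above the CX-5461 range.

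MT1G had no count in any CX-5461 library and 40, 23.9 and 40 CPM with the combination, at least 235-fold higher, and MT1H had none against 4.15, 5.64 and 2.76 CPM, at least 29.1-fold higher. MT1F, at 20.8, 19.2 and 20.6 CPM with the combination, was 208 times (95% counting interval 57 to 1721) its CX-5461 level, an interval that covers counting error only. The metallothionein genes are near-identical in sequence, so reads may be shared between them. SLC30A1, the zinc exporter that shares their metal response, did not rise: it was counted at 13.4, 18.8 and 15.6 CPM with CX-5461 and 9.63, 11.8 and 12.7 CPM with the combination, a fall of -0.48 ± 0.18 (edgeR adjusted p = 0.0213). The call was lost without CX-5461 replicate 2 (adjusted p = 0.126), without combination replicate 1 (0.0784) and with library size alone or upper-quartile scaling (0.0711 and 0.0998). DESeq2 lost it too (adjusted p = 0.0504).

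Linker and variant histones, 15 tested, rose in 9 cases and fell in 5, with a median of 1.56. H3-3B, a source of replication-independent histone H3.3, rose from 1325, 1387 and 1342 to 5665, 5130.0 and 5034 CPM, by 1.96 ± 0.10. H2AJ and H2BC21 rose by 2.44 ± 0.16 and 4.85 ± 0.27, while H2AZ1 fell by -1.63 ± 0.09. Of 11 tested HDAC genes, the targets of panobinostat, 7 rose and 2 fell, with a median of 0.49. HDAC1 rose from 144, 129.5 and 143 to 200.2, 197 and 213 CPM, by 0.55 ± 0.10, HDAC3 by 1.08 ± 0.09 and HDAC6, the tubulin deacetylase, by 1.04 ± 0.12. HDAC11 rose from 1.87, 1.71 and 1.96 to 21.5, 18.4 and 21.2 CPM, by 3.45 ± 0.23. HDAC7, a class IIa member, fell from 666, 676 and 665 to 75.3, 113 and 93.7 CPM, by -2.83 ± 0.30, and HDAC4 fell by -0.64 ± 0.15.

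Of 24 tested acetyltransferases and subunits of deacetylase complexes, 12 fell, among them CREBBP by -1.12 ± 0.13, and 8 rose, among them RCOR2, a neural corepressor of CoREST type, from 0.468, 0.284 and 0.56 to 15.1, 17.8 and 16.8 CPM. HEXIM1 was counted at 46, 50.9 and 36.7 CPM with CX-5461 and 111, 130.1 and 108 CPM with the combination, a rise of 1.39 ± 0.13 (edgeR adjusted p = 8.93e-10). Every combination library was above every CX-5461 library. In its list of 13 tested genes of P-TEFb and its partners, 2 rose and 4 fell: MEPCE, which caps the 7SK RNA, fell by -1.55 ± 0.11, ELL by -0.65 ± 0.13, and HEXIM2 by -0.68 ± 0.25 with overlapping libraries. The HEXIM2 call was lost without CX-5461 replicate 1 or combination replicate 1 or 2, with adjusted p from 0.0565 to 0.078. DESeq2 (adjusted p = 0.0568) and upper-quartile scaling (adjusted p = 0.0604) lost it too. With upper-quartile scaling the list split into 4 rises and 2 falls, and without combination replicate 1 it had 2 falls.

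Neuronal genes that passed the filter mostly rose as well. Of 54 listed neuronal genes 28 passed the filter, 24 of these rose and 3 fell, with a median of 3.89. Many passed only through the groups in which they were high, so this count gives no measure of the list. DLL3, an inhibitory Notch ligand, was counted at 0, 0.284 and 0 CPM with CX-5461 and 57, 49.9 and 55 CPM with the combination, 554 times (95% counting interval 153 to 4581) the CX-5461 level. KIF5C, a neuronal kinesin, rose from 0.194 ± 0.0791 to 27.9 ± 4.08 CPM and SYT11, a synaptotagmin, from 4.87 ± 0.61 to 116 ± 7.92 CPM. The 3 that fell, ENO2 (-2.16 ± 0.12), UCHL1 (-0.73 ± 0.13) and KCNH2 (-0.62 ± 0.17), were already present with vehicle at 154, 521 and 12 CPM.

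Among the largest rises chosen by size, FSCN1, the actin bundler fascin, was counted at 0.624, 0.711 and 0.56 CPM with CX-5461 and 75.9, 67.5 and 77.9 CPM with the combination, a rise of 6.82 ± 0.23. CDR2L rose from 0.777 ± 0.0649 to 68.2 ± 8.61 CPM and DNER, a neuronal Notch ligand, from 0.987 ± 0.509 to 80 ± 1.99 CPM. PEG10, an imprinted gene of retrotransposon origin, rose from 10.8, 10.5 and 8.55 to 400.1, 344 and 467 CPM, by 5.34 ± 0.15. ID1, an inhibitor of differentiation factors, rose by 5.38 ± 0.33, CCDC88A, an actin-binding protein, by 5.53 ± 0.18, TRNP1, a nuclear regulator of cortical growth, by 5.42 ± 0.22 and LRRIQ1 by 5.71 ± 0.25.

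Immediate early genes, the first transcribed after a stimulus, gave 13 rises and 7 falls among 25 tested, with a median of 0.83. EGR1 was counted at 1.72, 0.853 and 0.981 CPM with CX-5461 and 38, 33.7 and 47.3 CPM with the combination, a rise of 5.06 ± 0.26. IER2 rose from 12.5, 11.8 and 12.5 to 188, 177 and 205 CPM, by 3.95 ± 0.12, and NR4A2, an orphan nuclear receptor, by 3.16 ± 0.19. KLF6 fell by -1.19 ± 0.11. Among 7 tested nuclear noncoding RNAs 4 rose and 2 fell: beside MALAT1, KCNQ1OT1 rose by 1.75 ± 0.18 and TUG1 by 0.38 ± 0.12, and OIP5-AS1, whose reads cannot be told from those of an overlapping gene without strand, fell by -1.15 ± 0.14.

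Genes of protein secretion and turnover fell in part. Of 62 tested genes of endoplasmic reticulum (ER) chaperones and secretion, 32 fell and 8 rose, with a median of -0.30. TXNDC11, a thioredoxin-like ER protein, fell from 122 ± 13.4 to 29.5 ± 5.17 CPM, by -2.04 ± 0.14, and the signal peptidase genes SPCS2 and SPCS1 fell by -1.50 ± 0.12 and -1.26 ± 0.11. HSPA5, the main ER chaperone BiP, was counted at 790.1, 1096 and 878 CPM with CX-5461 and 596, 555 and 592 CPM with the combination, a fall of -0.67 ± 0.12. ERO1B, an ER oxidase, rose from 4.67 ± 0.74 to 20.7 ± 1.6 CPM. Of 44 tested proteasome genes 30 fell and 1 rose, with a median of -0.55. PSMB10, an immunoproteasome subunit, fell furthest of those named, from 247, 216 and 227 to 22.5, 21.4 and 25.6 CPM, by -3.31 ± 0.12. PSMB5, the subunit that bortezomib binds, fell from 161, 142 and 154 to 60.2, 48.9 and 56.3 CPM, by -1.47 ± 0.10, and NFE2L1, the transcription factor that restores proteasomes, fell by -1.51 ± 0.12. PSMD6 rose by 0.67 ± 0.10, and the number of risers was 2 without combination replicate 3.

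The integrated stress response, which reports on translation stress, gave 20 falls and 2 rises among 40 tested genes, with a median of -0.71. TRIB3 fell from 69.5 ± 7.74 to 13.7 ± 0.448 CPM, by -2.35 ± 0.16, CEBPG by -1.85 ± 0.15 and the amino acid transporter gene SLC1A4 by -1.83 ± 0.10. ATF4, its central factor, was counted at 365, 419 and 361 CPM with CX-5461 and 225, 198 and 255 CPM with the combination, a difference that did not pass the test (-0.76 ± 0.36, edgeR adjusted p = 0.0898) although the libraries did not overlap. The risers were CTH, of cysteine synthesis, at 0.92 ± 0.27, and DDIT4, an mTOR inhibitor, at 1.09 ± 0.32, and 1 gene rose without CX-5461 replicate 3. Cytosolic heat shock chaperones, 23 tested, gave 8 falls and 7 rises, with HSPE1 at -1.52 ± 0.11 and HSF2 at 0.79 ± 0.09.

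In cholesterol synthesis 9 of 26 tested genes rose (34.6%) and 8 fell (30.8%), near the shares of all genes, 35.9% and 33.9%. MVD rose from 28.6, 24 and 31.5 to 112, 102 and 99.2 CPM and TM7SF2 by 2.05 ± 0.15. EBP fell by -1.60 ± 0.11. In fatty acid synthesis 6 of 11 fell and 2 rose: FASN, the fatty acid synthase, fell from 154, 190.1 and 210.1 to 27.6, 30.9 and 35.2 CPM, by -2.57 ± 0.13, FADS1 by -1.75 ± 0.13 and SCD by -1.09 ± 0.12, while ACSL3 rose by 1.28 ± 0.10. Of 54 tested genes of oxidative phosphorylation 30 fell and 3 rose, with a median of -0.34, among them NDUFB8 (-1.33 ± 0.11), NDUFV2 (-1.30 ± 0.10) and SDHA (-1.22 ± 0.09), with NDUFA2 rising by 0.83 ± 0.13. Lysosome and autophagy genes went the other way, with 19 rises and 4 falls among 42 and a median of 0.23. LAMP2, a lysosomal membrane protein, rose from 174, 179.6 and 178 to 465, 482 and 468 CPM and ATG2A, a lipid transfer protein of autophagosomes, from 47.8, 54.9 and 55.1 to 198, 212 and 221 CPM, while CLN3 fell by -1.65 ± 0.15.

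Whether CX-5461 changed what panobinostat did was tested as a difference of effects, the combination against CX-5461 minus panobinostat against vehicle, in the same fit of 12 libraries. Panobinostat alone called 8399 genes (69.8%), 4439 higher (36.9%) and 3960 lower (32.9%). Across all 12030 genes the 2 effects, which share no library, had a Pearson correlation of 0.918 and a Spearman correlation of 0.911, given as a description, since genes are not independent replicates. The difference was called in 664 genes (5.52%), 225 above 0 (1.87%) and 439 below 0 (3.65%). This number is sensitive to single libraries: it was 435 without CX-5461 replicate 1, 418 without combination replicate 1, 415 without panobinostat replicate 3 and 1049 without panobinostat replicate 1. The count above 0 moved with them, to 109, 109, 111 and 415, and it was 145 without CX-5461 replicate 3, 148 without vehicle replicate 2 and 127 without vehicle replicate 3. The differences of at least 2-fold were 260 below 0 and 37 above.

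Most p53 targets differed below 0. Of 45 tested, 28 were below 0 and 17 were not called, and the median difference was -1.35. In the absence of CX-5461, panobinostat raised 18 of the 45 and lowered 16, with a median of 0.18, against 3 and 34 in its presence. CDKN1A was raised by panobinostat alone, from 45.9 ± 6.58 to 109.8 ± 21.2 CPM (1.25 ± 0.13), and fell with it under CX-5461, a difference of -3.66 ± 0.18 (edgeR adjusted p = 6.32e-13). The panobinostat mean and the combination mean, at 109.8 and 138 CPM, are closer to each other than to the CX-5461 mean. GDF15 gave a difference of -5.75 ± 0.63, BBC3 of -1.97 ± 0.15, PMAIP1 of -2.49 ± 0.38 and TNFRSF10B of -1.72 ± 0.19. TNFRSF10B was raised by panobinostat alone, from 20 ± 3.51 to 71.1 ± 9.88 CPM, and not called under CX-5461. MDM2 fell in both settings, by -0.94 ± 0.14 without CX-5461 and -1.61 ± 0.14 with it, a difference of -0.68 ± 0.20 (edgeR adjusted p = 0.0475). That call was lost without any 1 of the CX-5461 replicates, combination replicate 1 or 2, panobinostat replicate 2 or 3 or vehicle replicate 1 or 2, with adjusted p from 0.0686 to 0.144. Scaling by DESeq2 size factors (0.052) or library size alone (0.0739) and leaving out the 10 most abundant genes (0.0501) lost it too.

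**Figure D4:**
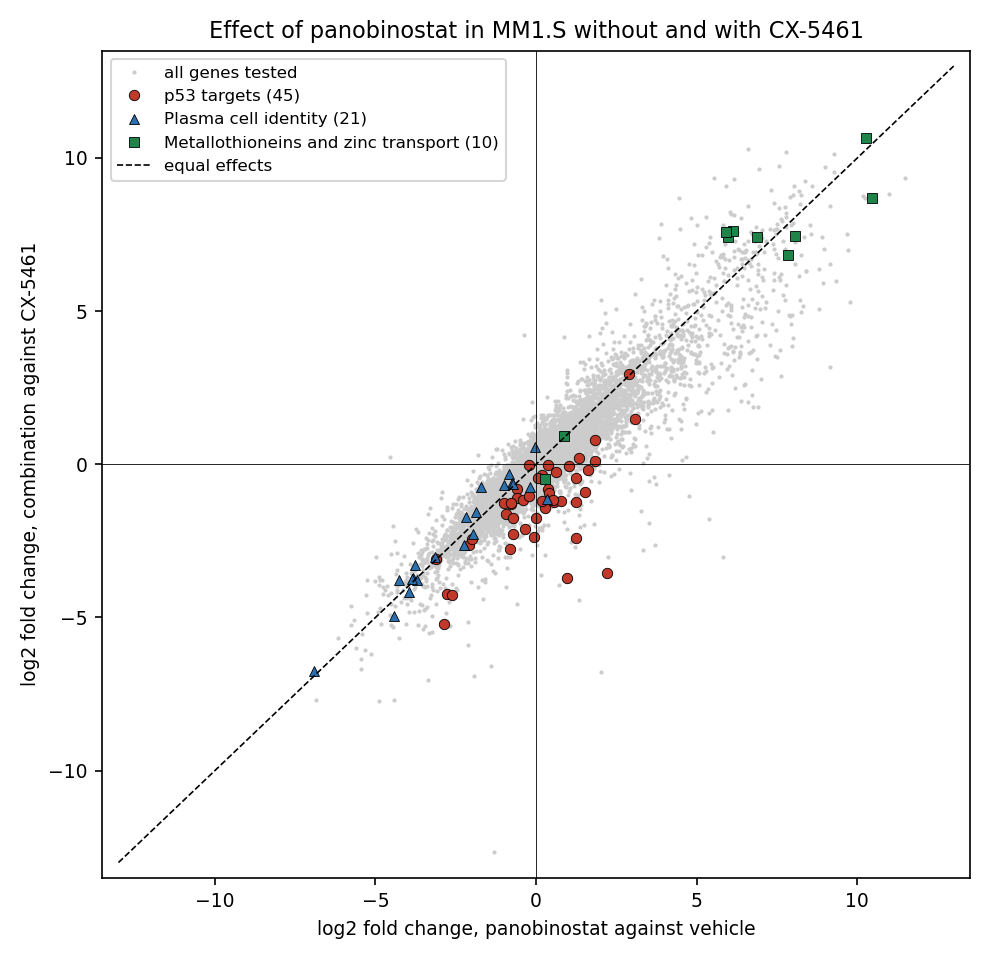
Log2 fold change on adding panobinostat without CX-5461 (x axis, panobinostat against vehicle) and with it (y axis, combination against CX-5461) for 12030 genes in MM1.S, with 45 p53 targets, 21 plasma cell genes and 10 genes of the metallothionein list marked. The dashed line marks equal effects. Plasma cell genes and metallothioneins lie close to the line and most p53 targets lie below it.

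Other differences below 0 were those of ARVCF, a catenin (-5.79 ± 0.58), and CREB5, a transcription factor (-4.48 ± 0.41). CREB5 was counted at 29.5, 36.5 and 39.3 CPM with panobinostat against 2.01 with vehicle, and under CX-5461 it was not called, at 25.3, 50.5 and 24.5 and 24.4, 27.5 and 27.6 CPM. CX-5461 replicate 2 was the high library: without it the log2 fold change was 0.086, and CREB5 was called lower without CX-5461 replicate 1 (-0.54, adjusted p = 0.0332) or replicate 3 (-0.55, adjusted p = 0.0236). Immediate early genes were below 0 in 9 of 25 cases, the rest not being called. JUN, of the AP-1 complex, rose by 3.07 ± 0.13 with panobinostat alone and by 0.83 ± 0.12 under CX-5461, a difference of -2.23 ± 0.17. Above 0 were FRMD3 (2.43 ± 0.67), METTL1, a tRNA methyltransferase (1.86 ± 0.33), and SLC7A5, the large amino acid transporter that MYC induces (1.75 ± 0.41). SLC7A5 fell by -3.37 ± 0.29 with panobinostat alone and by -1.63 ± 0.26 under CX-5461, where its starting level was lower, at 29.2 against 49.2 CPM. The SLC7A5 call was lost without combination replicate 3 (adjusted p = 0.0506). That of FRMD3 was lost without CX-5461 replicate 2, combination replicate 2 or 3, any 1 of the panobinostat replicates or vehicle replicate 2 or 3, with adjusted p from 0.0536 to 0.119. For FRMD3, limma-voom lost the call too (adjusted p = 0.0825).

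Several lists that fell were above 0 in part, that is, they fell less under CX-5461. Ribosome biogenesis genes were above 0 in 23 of 84 cases and MYC targets in 12 of 41, with the rest not called in either. Without panobinostat replicate 1 these counts were 39 and 19, and without combination replicate 1 they were 9 and 5. For the former, the other counts past 1.5 times were 10 without CX-5461 replicate 1, 11 without panobinostat replicate 3, 13 without vehicle replicate 2 and 10 without vehicle replicate 3. For the latter they were 6 without CX-5461 replicate 1, 7 without combination replicate 3, 7 without panobinostat replicate 3 and 5 without vehicle replicate 3. POLR1C, an RNA polymerase I subunit, illustrates it, with -1.50 ± 0.13 without CX-5461 and -0.50 ± 0.13 with it, a difference of 1.01 ± 0.19. Of the 21 plasma cell genes 2 differed, both above 0, FKBP11 (0.97 ± 0.22) and IRF4 (0.51 ± 0.15, edgeR adjusted p = 0.0473). The IRF4 call was lost without any 1 of the CX-5461, combination or vehicle replicates or panobinostat replicate 1, with adjusted p from 0.0607 to 0.141. Scaling by library size alone (adjusted p = 0.0901) or by upper quartile (adjusted p = 0.0617) lost it too. IRF4 fell by -0.83 ± 0.11 with panobinostat alone, and its CX-5461 level was already below its vehicle level, at 124 against 298 CPM. MT2A and MT1X were not called as different, at -1.01 ± 0.62 (edgeR adjusted p = 0.419) and -0.60 ± 1.45 (edgeR adjusted p = 0.879), so the interval of the difference is wide for both.

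The same addition was then compared between the lines. In JJN3, 3923 of 11411 genes (34.4%) were called, 2141 higher (18.8%) and 1782 lower (15.6%), of which 3 fell by at least 8-fold against 234 in MM1.S. With the replicate number as a block, 5595 genes were called in JJN3 and 8615 in MM1.S, so the JJN3 count depends on the fit. Of genes tested in both lines, 10628, the 2 fold changes had a Pearson correlation of 0.637 and a Spearman correlation of 0.627, again as a description across genes. The difference, JJN3 minus MM1.S, was called in 4162 of 12872 genes (32.3%), 2527 above 0 (19.6%) and 1635 below 0 (12.7%). A value above 0 means that the gene fell less or rose more in JJN3. The lines differ in p53 status and in other features, which cannot be told apart here. Levels in JJN3 were scaled within the JJN3 libraries, and differences between the lines came from a fit of all 24 libraries.

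The p53 targets, most of which fell in MM1.S, were called in JJN3 at shares near those of all genes there. Of 39 tested, 5 fell (12.8%, against 15.6% of all genes) and 9 rose (23.1%, against 18.8%), with a median of -0.10. With the replicate number as a block 10 fell and 9 rose, and of all 11411 genes 2651 fell and 2944 rose. Among 45 differences between the lines, 27 were above 0 and 2 below. CDKN1A was counted at 30.4, 48.4 and 28.9 CPM in the JJN3 CX-5461 libraries and 121, 104 and 92.6 CPM in the JJN3 combination libraries. It rose there by 1.57 ± 0.19, opposite to MM1.S, and the difference was 4.0 ± 0.23 (edgeR adjusted p = 8.52e-14). MDM2 in JJN3 was counted at 56, 61.7 and 66.7 CPM with CX-5461 and 43.1, 36 and 55.1 CPM with the combination, and the difference was 1.17 ± 0.21. BCL2L1 was at 3.78, 3.04 and 3.37 and 2.95, 1.96 and 4.32 CPM, a log2 fold change of -0.14 ± 0.36 and a difference of 4.13 ± 0.38. Among the other targets, PHLDA3 differed by 7.31 ± 0.56, GDF15 by 4.25 ± 0.67, FAS by 2.24 and BBC3 by 1.03 ± 0.23. PHLDA3 and GDF15 did not pass the filter in the fit of JJN3 alone, so their differences set falls in MM1.S against low counts in JJN3.

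More plasma cell genes fell than rose in both lines, and the median lay further below 0 in MM1.S. In JJN3 9 of 19 tested fell and 3 rose, or 11 and 4 with the replicate block, with a median of -0.62. Among 21 differences between the lines, 15 were above 0 and 1 below. TNFRSF17 was counted at 141, 91.1 and 118 CPM with CX-5461 and 24.6, 24.3 and 27.7 CPM with the combination in JJN3, a fall of -2.20 ± 0.19 and a difference from MM1.S of 4.57 ± 0.30. XBP1 and POU2AF1 differed by 2.40 ± 0.15 and 3.79 ± 0.19, SDC1 by 3.02 ± 0.18 and PRDM1 by 2.74 ± 0.28. PRDM1, which fell in MM1.S, rose in JJN3, by 0.46 (edgeR adjusted p = 0.0218). IRF4 was the exception below 0: it fell by -1.31 ± 0.16 in JJN3, from 224, 183 and 239 to 85.1, 73.1 and 103 CPM, further than in MM1.S, a difference of -0.98 ± 0.20 (edgeR adjusted p = 0.000282). MYC fell from 97.8 ± 26.2 to 58 ± 9.57 CPM in JJN3, by -0.75 ± 0.25, with a difference of 2.86 ± 0.47.

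**Figure D5:**
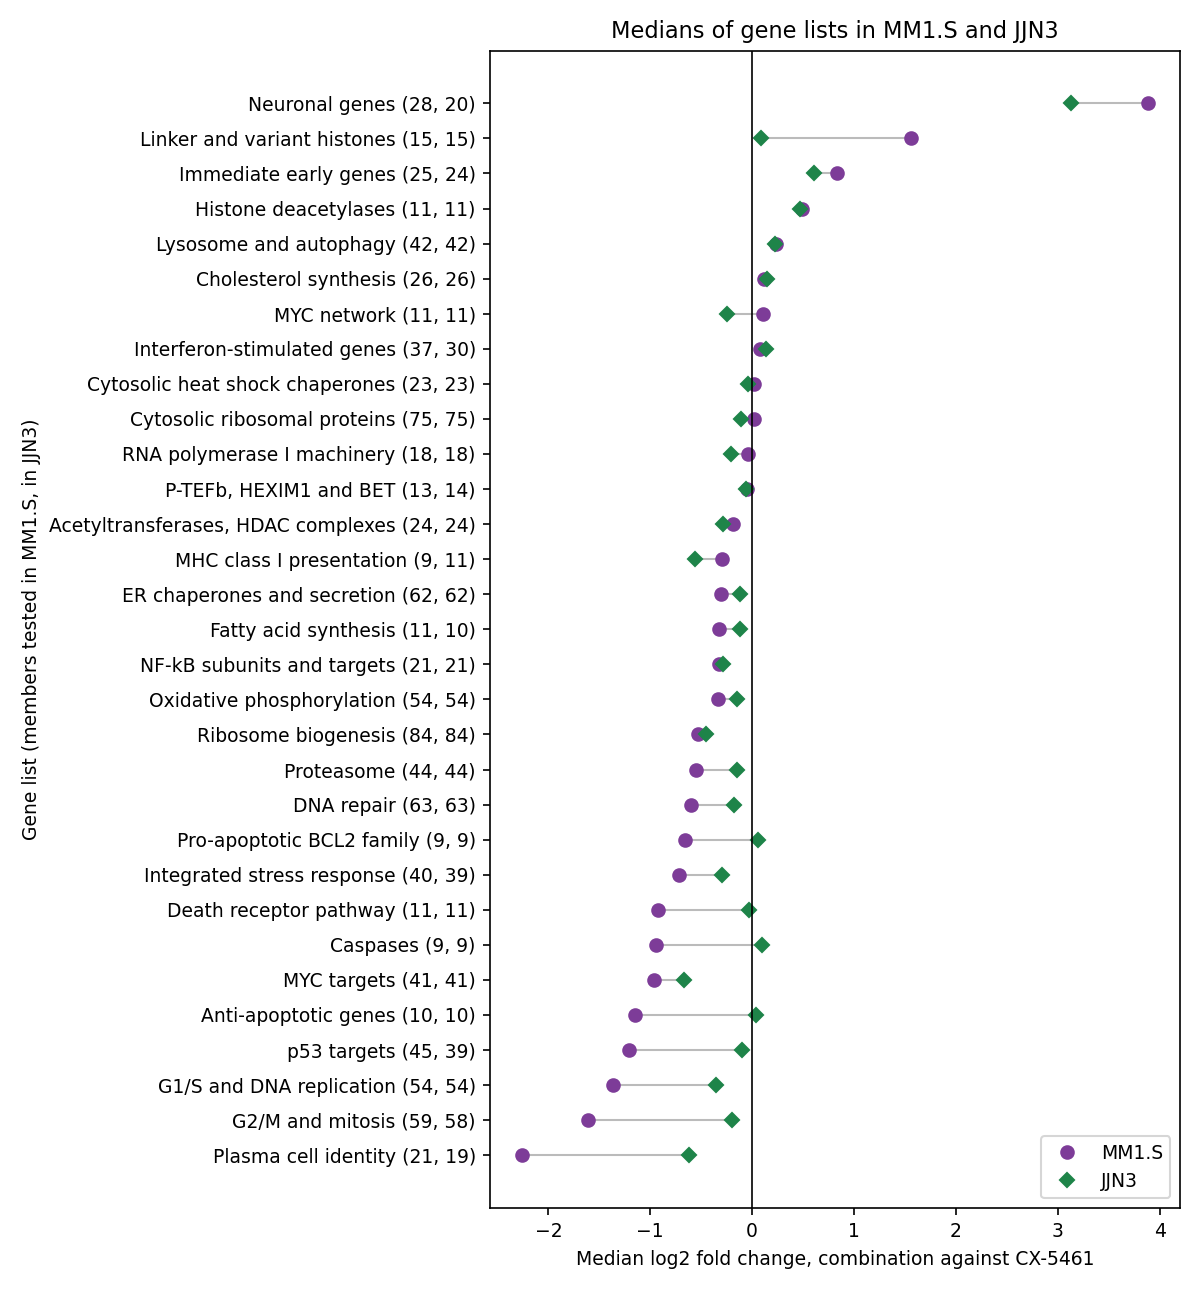
Median log2 fold change of each gene list when panobinostat was added to CX-5461, in MM1.S (circles) and JJN3 (diamonds). Plasma cell, p53 target, G1/S and G2/M medians lie further below 0 in MM1.S, at -2.26, -1.20, -1.36 and -1.61.

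Replication and mitosis genes separated the lines as well. In JJN3 14 of the G1/S genes fell and 3 rose, and of 58 tested G2/M genes 19 fell and 5 rose. With the replicate block these counts were 25 and 7 for G1/S and 25 and 8 for G2/M. The differences were above 0 in 37 G1/S genes and in 52 of 60 G2/M genes, the rest not being called. TOP2A differed by 1.34 ± 0.17 and CCNB1 by 1.92 ± 0.24. UBTF fell in both lines, by -1.39 ± 0.15 in JJN3. Ribosome biogenesis genes fell in both, with 38 of 84 called lower in JJN3, or 53 with the replicate block.

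The rises differed too. HEXIM1 was counted at 116, 149.9 and 142 CPM with CX-5461 and 149.8, 168 and 156 CPM with the combination in JJN3, a difference of -1.15 ± 0.22 from MM1.S. It was not called in JJN3 (0.22, edgeR adjusted p = 0.323), but was with the replicate block (0.23, edgeR adjusted p = 0.0378). MT2A rose in JJN3 from 1.49 ± 0.147 to 46.9 ± 13.2 CPM, and its difference did not pass the test (-1.87 ± 0.73, edgeR adjusted p = 0.0566). MALAT1 rose by 1.07 ± 0.34 in JJN3, a difference of -2.25 ± 0.40. Of 54 listed neuronal genes 20 passed the filter in JJN3, and 18 of these rose (90%, against 18.8% of all genes). With the replicate block all 20 rose, against 2944 of all 11411 genes. Members with few counts without panobinostat passed the filter through the groups in which they were high, so these counts give no measure of the list. Among 31 differences of neuronal genes between the lines, 6 were above 0 (19.4%, against 19.6% of all genes) and 6 below (19.4%, against 12.7%). The share above 0 is near that of all genes. The largest differences above 0 were those of CCL3, CD40, PHLDA3 and TSPAN7. CD40, the B cell costimulatory receptor, had no count in the CX-5461 libraries of JJN3 and 9.33 ± 2.43 CPM with the combination, and it rose from 41.4 ± 5.14 to 77.4 ± 1.94 CPM in MM1.S. The largest below 0 were those of DLL3, EPHB2, NXN and TBC1D16, of which EPHB2, NXN and TBC1D16 had no count in the CX-5461 libraries of MM1.S and were at least 62.6-, 90.5- and 30.3-fold higher with the combination.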

How the data were processed

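PolyA RNA was sequenced from the 3′ end in 24 libraries, and the authors deposited 1 table of raw read counts per gene for each cell line. Per the submitters' processing notes, HISAT2 2.2.1, featureCounts 2.0.1, limma 3.50.0 and the build hg19 (GRCh37) were used. Their roles and order, the annotation, strand setting and treatment of multi-mapped reads are each not given in the sources used here, so near-identical, overlapping and antisense genes are uncertain. Molecular identifiers are not mentioned, so intervals and floors cover counting error only. The tables name genes by NCBI Gene numbers: 27745 of 28395 matched a symbol, and the other 650 held at most 0.0387% of a library's counts.

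Counts were fitted with edgeR 4.0.16 in R 4.3.3 (filterByExpr, TMM scaling, robust quasi-likelihood test, Benjamini-Hochberg adjustment over all genes tested, threshold 0.05). The 12 MM1.S libraries with 4 group means gave the comparison with CX-5461 and the difference of panobinostat effects, JJN3 had its own fit, and the difference between lines came from all 24 libraries. A gene with no count in a group was set against a floor of 3 counts over that group. The text names the 10 largest rises and 10 largest falls whose log2 CPM averaged 3 or more and whose libraries did not overlap, up to 3 called genes per list by adjusted p and 1 in the other direction, a panel of 30 genes, and the 4 largest differences in each direction. The members, the 43 lists and the panel were chosen with earlier results of these data known. A few genes that the rule picks are not reported here. Genes named outside that rule were chosen after their values were seen.

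Same-numbered JJN3 libraries of different groups deviated together (correlations of 0.201 to 0.485 for every pair), so a fit with the replicate number as a block was added for JJN3 after the data were seen. Alternatives were DESeq2 1.42.0, limma-voom (limma 3.58.1), other scalings and filters, a replicate block and leaving out each library. The scripts were tested on simulated data. Windows upstream of transcription starts came from RefSeq, GRCh38.p14, and 9705 tested genes (80.7%) had one. They are not in the build of the counts, and no coordinates were converted.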

Additional observations from a re-analysis of the deposited data

Results flagged for a closer look

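For 13 genes given here the effect of panobinostat in MM1.S differed with and without CX-5461, and for 32 the effect of adding panobinostat to CX-5461 differed between JJN3 and MM1.S. Each difference is a contrast of log2 fold changes in edgeR's quasi-likelihood test with an adjusted p below 0.05. The panel genes were chosen with earlier results known, and no explanation was tested.

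With CX-5461 minus without it, these listed p53 targets lay below 0: GDF15 at -5.75, CDKN1A at -3.66, PMAIP1 at -2.49, BBC3 at -1.97, TNFRSF10B at -1.72 and MDM2 at -0.68, with the survival gene BCL2L1, also listed, at -1.65. ARVCF was at -5.79 and CREB5 at -4.48. Above 0 were FRMD3 at 2.43, METTL1 at 1.86, SLC7A5 at 1.75 and IRF4 at 0.51. The calls of MDM2, IRF4, FRMD3 and SLC7A5 were lost on leaving out single libraries, as given beside them above.

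Between the lines, JJN3 minus MM1.S, the p53 targets PHLDA3 at 7.31, GDF15 at 4.25, CDKN1A at 4.0, FAS at 2.24, MDM2 at 1.17, BBC3 at 1.03 and PMAIP1 at 0.98 lay above 0, as did the survival genes BCL2L1 at 4.13 and BCL2 at 2.09. So did the plasma cell genes TNFRSF17 at 4.57, POU2AF1 at 3.79, SDC1 at 3.02, PRDM1 at 2.74 and XBP1 at 2.40, and MYC at 2.86. Genes of proliferation and of ribosomal DNA were above 0 as well, with CCNB1 at 1.92, TOP2A at 1.34, E2F1 at 1.00 and UBTF at 0.62. The largest values above 0 chosen by size were CCL3 at 15.42, CD40 at 7.89 and TSPAN7 at 7.03. CCL3 had no count in the combination libraries of MM1.S and CD40 none in the CX-5461 libraries of JJN3, so these fitted values depend on the prior count and are no bounds. PHLDA3 and GDF15 did not pass the filter in the fit of JJN3 alone, so their values rest on low JJN3 counts.

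Below 0 between the lines were DLL3 at -7.99, EPHB2 at -7.76, NXN at -7.64, TBC1D16 at -7.28, MALAT1 at -2.25, HEXIM1 at -1.15, IRF4 at -0.98, BCL2L11 at -0.60, HDAC6 at -0.56 and HDAC1 at -0.45. EPHB2, NXN and TBC1D16 had no count in the CX-5461 libraries of MM1.S, so their fitted values depend on the prior count too.

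For 6 of these genes the call between the lines was lost on leaving out 1 library, with the direction kept. For PMAIP1 these were JJN3 CX-5461 replicate 1 or 3, JJN3 combination replicate 1 or 2 and MM1.S combination replicate 1 (adjusted p 0.0518 to 0.0839). For UBTF they were JJN3 CX-5461 replicate 3, JJN3 combination replicate 3, MM1.S CX-5461 replicate 3 and MM1.S combination replicate 1 (adjusted p 0.0598 to 0.16), and for E2F1 JJN3 combination replicate 3 (adjusted p = 0.0501). For BCL2L11 they were JJN3 CX-5461 replicate 1 or 2, JJN3 combination replicate 2, MM1.S CX-5461 replicate 1 or 3 and MM1.S combination replicate 2 or 3 (adjusted p 0.0638 to 0.192). For HDAC6 they were JJN3 CX-5461 replicate 2, JJN3 combination replicate 1, MM1.S CX-5461 replicate 2 and MM1.S combination replicate 3 (adjusted p 0.0548 to 0.103). For HDAC1 they were MM1.S CX-5461 replicate 2 or 3 and MM1.S combination replicate 2 or 3 (adjusted p 0.0502 to 0.0911). The BCL2L11 call was also lost with limma-voom (adjusted p = 0.0558) and the HDAC1 call with no filter on low counts (adjusted p = 0.0543).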

How the results depend on the processing

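The comparison with CX-5461 in MM1.S called 7942 to 9397 genes over all alternatives, 7942 to 8106 of them without 1 library, and 91.6% to 99.9% of the genes called remained called. Over 3082 combinations of a named gene and an alternative, 3036 kept direction and call, 41 (11 genes) lost the call, 3 (1 gene) gained it and 2 changed sign: CREB5 ran from -0.552 to 0.086 without 1 library, the latter without CX-5461 replicate 2, and TNFRSF10B from -0.010, without combination replicate 3, to 0.187, neither being called with all 12 libraries. The difference of panobinostat effects moved most: without 1 library it called 415 to 1049 genes, 109 to 415 of them above 0. The replicate block called 1023 with 400 above 0, against 664 and 225. The labels give replicate numbers and do not say that equal numbers pair libraries. In MM1.S the correlations of deviations were 0.0876, 0.171 and 0.15 for same-numbered CX-5461 and combination libraries, each the highest of its library among these pairs. The block called 8615 genes for the comparison with CX-5461 in MM1.S. In JJN3, where same-numbered libraries deviated together, it called 5595 against 3923. The difference between lines called 5179 with the block and 3628 to 3998 without 1 library, against 4162, and the block kept the direction and call of the 33 named genes. With limma-voom 13 neuronal genes differed below 0 between the lines, against 6. Of 5074 list counts, 4608 stayed within 1.5 times and 466 moved further. The causes were not tested. Depth limits genes under 3 counts a group.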

Other observations

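Interferon and NF-kB genes moved in both directions when panobinostat was added to CX-5461 in MM1.S. In the lists of antigen presentation some genes fell and none was called higher. Of 37 tested interferon-stimulated genes 14 rose and 13 fell, with a median of 0.08, against 35.9% and 33.9% over all genes. ISG15, a ubiquitin-like modifier, rose from 7.18, 11.2 and 7.42 to 153, 93.2 and 145 CPM, by 3.91 ± 0.26. ISG20, an RNA exonuclease, fell from 146, 163 and 125 to 15.5, 16.9 and 14.4 CPM, by -3.21 ± 0.17, and TRIM22 by -3.70 ± 0.61. Of 21 tested NF-kB subunits and targets 6 rose and 12 fell, with a median of -0.33: REL, a subunit of lymphoid cells, rose by 1.97 ± 0.22, while NFKB1, which encodes p50, fell by -2.34 ± 0.13 and BCL3, a nuclear partner of p50, by -1.43 ± 0.13.

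In antigen presentation by MHC class I, 4 of 9 tested genes fell and 5 were not called. ERAP2, which trims peptides in the ER, fell from 72.1, 64.5 and 71.4 to 29.3, 35.8 and 24.9 CPM, by -1.21 ± 0.13. B2M, the light chain of class I, was counted at 156, 1193 and 120.1 CPM with CX-5461 and 2124, 2149.5 and 1759 CPM with the combination, and the difference did not pass the test (2.04 ± 1.00, edgeR adjusted p = 0.0997). CX-5461 replicate 2 alone was near the combination range. Of 6 tested ligands of natural killer cell receptors, 3 rose (ULBP1 by 2.50 ± 0.49, NCR3LG1 by 5.07 ± 0.80 and NECTIN2 by 5.61 ± 0.35) and 3 fell (CLEC2B by -1.98 ± 0.27, CD48 by -1.40 ± 0.20 and PVR by -1.30 ± 0.12). CD48, an adhesion protein of blood cells, went from 75.2, 77.1 and 58.3 to 23.4, 35.5 and 20.3 CPM.

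Markers of further cell types stayed low in sum. The 8 erythroid and platelet markers summed to 16.5 to 23.7 CPM with CX-5461 and 5.67 to 7.80 with the combination, and the 8 stromal and endothelial markers to 23.5 to 26.8 and 14.4 to 26.3. HBB, the beta-globin gene, gave most of the erythroid sum, at 19.5 ± 2.97 and 3.53 ± 1.12 CPM, with HBA1 and HBA2 below the filter. The part of these genes in the results was not tested.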
